A study of Homo sapiens with 6 samples.

Results

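The 39 human HOX genes of the HOXA, HOXB, HOXC and HOXD clusters were compared between NOZ-R and NOZ cells by RNA-seq. They were taken as every row of the deposited count table whose symbol is HOX, a cluster letter from A to D and a number, which gave 39 of 63140 rows. NOZ-R is a gallbladder cancer line that was made resistant to gemcitabine, a nucleoside analogue, by raising the drug dose in steps. NOZ is the established human gallbladder cancer line it came from and received no such selection. There were 3 poly-A RNA libraries of NOZ-R and 3 of NOZ. The labels do not say whether the libraries of a line came from separate cultures or whether NOZ-R is 1 clone, so p-values here reflect the spread among libraries alone, which may be technical.

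HOX genes encode homeodomain transcription factors that give cells their position along the body axis. They lie in 4 clusters, and genes of the same number in different clusters (paralogs) descend from a common ancestor and are more alike than neighbours. Low-numbered genes lie at the end of a cluster that is opened first and act in the hindbrain and anterior trunk, whereas high-numbered genes act in the posterior trunk, the limbs and the genital tract. Adult epithelia and their tumours keep a subset of this code, which Polycomb proteins hold silent and trithorax and COMPASS proteins hold active.

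The promoters of 4 HOXA genes are shown because these members of 1 cluster gave different results. HOXA2 and HOXA11 rose in NOZ-R, HOXA13 did not pass the test and HOXA7 had no count in any library. Each is 300 bases of the minus strand, from 250 bases before to 50 after the gene's start in RefSeq (GRCh38.p14), written 5′ to 3′. Capitals mark every CpG dinucleotide, a C followed by a G, the site that DNA methylation acts on. The windows are chr7:27102634-27102933 for HOXA2, chr7:27156626-27156925 for HOXA7, chr7:27185183-27185482 for HOXA11 and chr7:27200042-27200341 for HOXA13.
HOXA2: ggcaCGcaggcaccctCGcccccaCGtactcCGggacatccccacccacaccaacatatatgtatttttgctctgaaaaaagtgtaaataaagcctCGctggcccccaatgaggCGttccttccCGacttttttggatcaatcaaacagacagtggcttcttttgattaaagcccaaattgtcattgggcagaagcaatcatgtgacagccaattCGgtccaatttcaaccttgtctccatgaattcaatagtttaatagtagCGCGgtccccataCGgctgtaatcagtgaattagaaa
HOXA7: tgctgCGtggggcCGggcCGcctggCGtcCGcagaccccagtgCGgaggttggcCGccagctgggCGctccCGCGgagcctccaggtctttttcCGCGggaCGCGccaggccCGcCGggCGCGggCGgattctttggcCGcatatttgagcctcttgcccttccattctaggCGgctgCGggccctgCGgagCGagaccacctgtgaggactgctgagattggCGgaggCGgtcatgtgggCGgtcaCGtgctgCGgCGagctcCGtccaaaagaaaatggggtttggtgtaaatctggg
HOXA11: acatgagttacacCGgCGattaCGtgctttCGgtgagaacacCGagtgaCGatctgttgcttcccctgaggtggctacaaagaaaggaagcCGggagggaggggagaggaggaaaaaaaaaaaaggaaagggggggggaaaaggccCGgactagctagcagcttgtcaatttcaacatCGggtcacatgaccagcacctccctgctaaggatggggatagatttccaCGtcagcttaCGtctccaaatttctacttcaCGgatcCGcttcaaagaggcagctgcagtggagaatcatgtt
HOXA13: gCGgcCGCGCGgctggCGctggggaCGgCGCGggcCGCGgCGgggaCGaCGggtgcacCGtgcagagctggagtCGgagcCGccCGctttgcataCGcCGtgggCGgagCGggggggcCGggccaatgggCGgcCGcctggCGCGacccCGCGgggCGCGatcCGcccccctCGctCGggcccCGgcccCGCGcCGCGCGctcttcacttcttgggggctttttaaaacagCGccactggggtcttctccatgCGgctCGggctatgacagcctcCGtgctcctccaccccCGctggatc

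The HOXA13 window held 44 CpG and the silent HOXA7 window 31, against 13 in the HOXA11 window and 11 in the HOXA2 window. The median over 35116 promoter windows of the same length was 14, and 4.19% of them held at least as many as HOXA13. Among these 4 windows the most CpG-rich belonged to an expressed and a silent gene, and a link of CpG number to level was not tested. The letters TGATNNAT, searched on both strands as a composite PBX and HOX binding motif, occurred in the HOXA2 window and in 7.4% of all windows. TATAAA (11.5% of windows) was in none of the 4, and CCAAT (34.6% of windows) was in the HOXA2, HOXA7 and HOXA13 windows. Methylation and factor binding were not measured, and a match of letters is a description only.

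The clusters also hold the genes of the miR-196 microRNAs, which are known to bind HOX messenger RNAs. Their mature sequences in RefSeq share 1 seed, bases 2 to 8, here in capitals, and so read the same target sites.
hsa-miR-196a-5p: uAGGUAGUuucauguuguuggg
hsa-miR-196b-5p: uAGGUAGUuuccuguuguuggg
The first is encoded by MIR196A1, within the HOXB cluster, and MIR196A2, within the HOXC cluster, and the second by MIR196B, within the HOXA cluster. Mature microRNAs have no poly-A tail and their levels were not measured.

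Total counts per library lay between 15661532 and 18855409 in NOZ-R and between 14136037 and 19244923 in NOZ. NOZ replicate 2 stood apart from the other NOZ libraries, with a mean chi-square per gene of 10.01 and 8.84 against them, whereas NOZ replicates 1 and 3 differed by 2.13. Genes whose call turns on it are given with and without it. The line was checked against 9 markers of biliary and glandular epithelium, whose summed level was 3460 to 3546 CPM (counts scaled to a common library total with TMM factors) in NOZ-R and 2540 to 3002 CPM in NOZ. The adhesion gene CDH1 was low, with 5, 2 and 7 counts in NOZ-R and 26, 14 and 15 in NOZ. Summed fibroblast markers, 11 genes, lay between 11.7 and 12.8 CPM in NOZ-R and between 3.15 and 3.79 CPM in NOZ, where 6 of the 11 were at 0. Summed endothelial markers, 5 genes, lay between 9.07 and 10.2 CPM in NOZ-R and between 2.44 and 2.80 CPM in NOZ, and the 5 leukocyte markers between 4.16 and 5.51 CPM in NOZ-R and between 3.21 and 5.69 CPM in NOZ. The part of these markers in the HOX differences was not tested. In bulk RNA, fewer cells that express a gene and less RNA per cell cannot be told apart.

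In both lines HOXB was high per length, HOXA and HOXC were lower and HOXD was silent or nearly so. Per length, summed HOXC stood well above HOXA in NOZ and close to it in NOZ-R. The levels of single genes shifted in both directions. Most tested HOXC genes were lower in NOZ-R, led by HOXC11, HOXC8 and HOXC10, and no HOXC gene rose. HOXA11 and HOXA2 were higher, and no HOXA gene fell. HOXB moved both ways, with HOXB7 up and its neighbours HOXB8 and HOXB9 down. Of 22 HOX genes with enough counts to test, 4 rose and 10 fell in NOZ-R at an adjusted p below 0.05 in edgeR's quasi-likelihood test, and 8 did not pass. Over all 14386 tested genes, 30.4% rose and 29.8% fell, together 60.2%, so a share of this size is common in this comparison. The median log2 fold change of the tested HOX genes was -0.13 (range -1.57 to 1.29), against -0.01 for all tested genes.

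**Figure D1:**
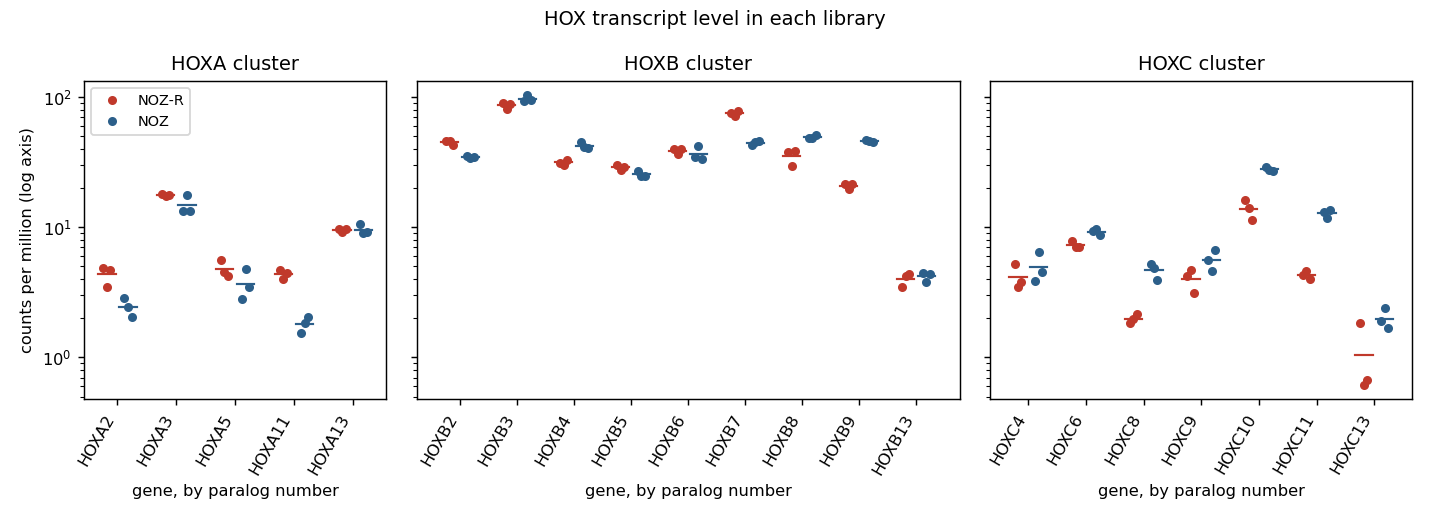
Level of the reported HOX genes that averaged 1 CPM or more in either line, in TMM-scaled CPM on a log axis, with 1 point per library, a line at the mean and NOZ-R left of NOZ for each gene. HOXB3 and HOXB7 reach the highest CPM in NOZ-R and HOXB3 in NOZ, and the points of HOXC8, HOXC10 and HOXC11 lie lower in NOZ-R without overlap.

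By cluster, 2 of 6 tested HOXA genes rose and 0 fell, with a median log2 fold change of 0.47. In HOXB, 2 of 9 rose and 4 fell, with a median of -0.08. In HOXC, 0 of 7 rose and 6 fell, with a median of -0.90. These counts stand beside 30.4% of all tested genes that rose and 29.8% that fell. In the 2 clusters with a count of 0 in edgeR, no member reached an unadjusted p below 0.05 in that direction and the DESeq2 Wald test called 0 as well. No HOXD gene had enough counts to be tested. The libraries of the lines did not overlap for 13 of the 22 genes, 5 higher and 8 lower in NOZ-R, against 65.3% of all tested genes (32.9% higher and 32.4% lower). A called change of at least 2-fold was found for 4 of the 22, HOXA11, HOXB9, HOXC8 and HOXC11, against 16.5% of all tested genes. The last 3 of these were lower in NOZ-R, against 7.57% of all tested genes. Counts were made without stated strand information, so reads of a HOX gene and of an antisense gene that overlaps its exons cannot be separated.

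**Figure D2:**
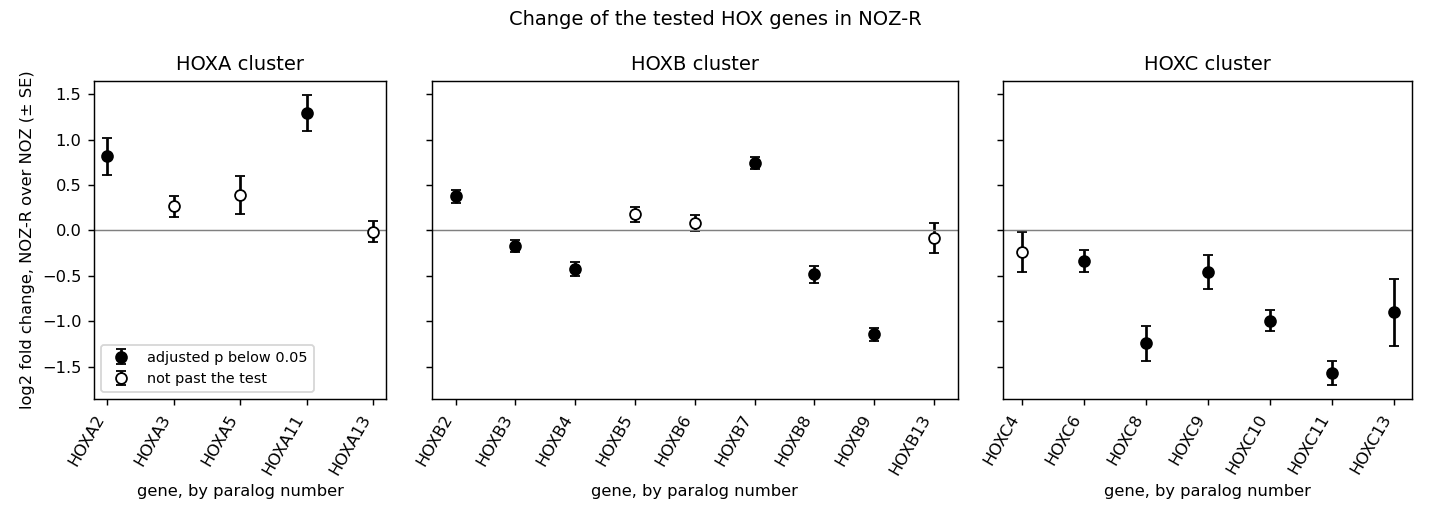
Log2 fold change of NOZ-R over NOZ with its standard error for each reported HOX gene, ordered by cluster and paralog number and filled where the edgeR adjusted p was below 0.05. HOXC lies to the negative side throughout, down to -1.57 for HOXC11, and HOXA11 has the largest increase at 1.29.

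Silent and near-silent members were mostly in HOXD. With 0 counts in all 6 libraries, 9 genes were silent in both lines: HOXA7, HOXB1, HOXD1, HOXD3, HOXD4, HOXD8, HOXD9, HOXD10 and HOXD11. Several share exon bases with other genes: HOXA7 1507 with HOXA-AS3, HOXD3 2206 and HOXD4 1178 with AC009336.2, and HOXD10 452 with HOXD11. How reads of shared bases were counted is not known, so silent here means without assigned counts. The limit that a count of 0 allows, 3 counts over a line, was 0.0610 CPM in NOZ-R and 0.0568 CPM in NOZ, for counting error only. A further 3 genes had at most 3 counts in each line: HOXA10 had 0, 3 and 0 in NOZ-R and 0 in each NOZ library, HOXD12 had 0, 1 and 2 in NOZ-R and 0 in each NOZ library, and HOXD13 had 0 in each NOZ-R library and 0, 1 and 0 in NOZ. The remaining 5 untested genes were low. HOXC12, the posterior HOXC gene next to HOXC11, had 0 counts in each NOZ-R library, against 8, 10 and 3 in NOZ, and was at least 6.51-fold lower in NOZ-R by the limit over the line. It fell below the filter of the main test, and was called lower by edgeR without a filter and by the DESeq2 Wald test. HOXA9, a posterior gene known for its role in myeloid leukaemia, had 7, 1 and 3 counts in NOZ-R and 0, 2 and 0 in NOZ, a ratio of 5.91 with a 95% exact interval of 1.29 to 54.9 that covers counting error only. The lines overlapped for HOXA9. HOXA4 had 5, 1 and 0 counts in NOZ-R and 2, 0 and 0 in NOZ, HOXA6 had 14, 9 and 9 in NOZ-R and 11, 6 and 8 in NOZ, and HOXC5 had 1, 5 and 2 in NOZ-R and 4, 2 and 5 in NOZ. The intervals of these 3 ratios included 1.

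In the HOXA cluster (chromosome 7, minus strand, GRCh38), HOXA11 and HOXA2 rose in NOZ-R and the rest of the tested genes did not pass. HOXA11, which patterns the forearm and the uterus, had 4.699, 4.03 and 4.43 CPM in NOZ-R libraries and 1.55, 1.83 and 2.03 CPM in NOZ libraries. Every NOZ-R library was above every NOZ library. The log2 fold change was 1.29 ± 0.194 (SE, n = 3 each), with an edgeR adjusted p of 6.21e-05, although 717 exon bases of HOXA11 overlap its antisense gene HOXA11-AS. HOXA11-AS itself had 1, 0 and 1 counts in NOZ-R and 5, 1 and 3 counts in NOZ. HOXA2, which shapes the second pharyngeal arch and the hindbrain, had 4.86, 3.47 and 4.69 CPM in NOZ-R and 2.85, 2.44 and 2.03 CPM in NOZ, again without overlap. Its log2 fold change was 0.82 ± 0.204 (SE), edgeR adjusted p = 0.00343. HOXA13, the last gene of the cluster and a regulator of hand, foot and urogenital development, had 9.79, 9.17 and 9.66 CPM in NOZ-R and 10.6, 8.97 and 9.21 CPM in NOZ. The lines overlapped, and its log2 difference was -0.01 ± 0.117 (SE, adjusted p = 0.94 in edgeR).

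HOXA3, needed for the thymus and parathyroid, had 18.1, 17.5 and 17.6 CPM in NOZ-R and 13.2, 17.6 and 13.3 CPM in NOZ. NOZ replicate 2 reached the NOZ-R libraries and the other NOZ libraries lay below them. With all libraries the log2 fold change was 0.27 ± 0.117 (SE, adjusted p = 0.0625 in edgeR), and without NOZ replicate 2 it was 0.42 with an edgeR adjusted p of 0.00167. HOXA5, a regulator of lung development, had 5.58, 4.52 and 4.22 CPM in NOZ-R and 2.80, 4.76 and 3.45 CPM in NOZ. It gave 0.39 ± 0.207 (SE) on the log2 scale with an edgeR adjusted p of 0.121, and 0.63 with an adjusted p of 0.0129 without NOZ replicate 2.

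The HOXB cluster (chromosome 17, 48528526 to 48729178, minus strand, GRCh38) was by far the highest per length in both lines and changed in both directions. HOXB7, a paralog of the silent HOXA7 that is often abundant in carcinomas, had 75.3, 71.0 and 78.5 CPM in NOZ-R and 43.2, 45.3 and 45.8 CPM in NOZ. No library overlapped, and the log2 fold change was 0.74 ± 0.0675 (SE, adjusted p = 5.35e-07 in edgeR). HOXB9, which acts in the thoracic skeleton and mammary gland in mice, had 21.4, 19.7 and 21.4 CPM in NOZ-R and 46.9, 46.1 and 45.3 CPM in NOZ. The lines were far apart relative to their spread, with 20.8 ± 0.978 CPM in NOZ-R and 46.1 ± 0.813 CPM in NOZ (SD, n = 3 per line). HOXB9 thus fell by 1.15 ± 0.0762 on the log2 scale (SE, adjusted p = 2.37e-08 in edgeR), and the annotation gives HOXB7 and HOXB9 no exon overlap with each other or with other genes. HOXB8 and HOXB9 both lie within the annotated span of HOXB7. HOXB8, a trunk gene, had 38.1, 29.4 and 38.6 CPM in NOZ-R and 48.3, 48.7 and 51.3 CPM in NOZ without overlap, and fell by 0.48 ± 0.0965 on the log2 scale (SE, adjusted p = 0.000677 in edgeR).

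At the anterior side of HOXB, HOXB2, a hindbrain gene, had 46.1, 45.8 and 43.2 CPM in NOZ-R and 35.5, 33.9 and 34.8 CPM in NOZ. All NOZ-R libraries lay above all NOZ libraries, and the log2 fold change was 0.38 ± 0.0708 (SE, adjusted p = 0.000435 in edgeR). HOXB4, known for expanding blood stem cells when overexpressed, had 31.3, 30.2 and 33.1 CPM in NOZ-R and 45.2, 41.7 and 40.3 CPM in NOZ. It fell by 0.43 ± 0.0776 on the log2 scale without overlap (SE, adjusted p = 0.000308 in edgeR). HOXB3, a hindbrain and thyroid gene whose exons overlap those of HOXB4 and HOXB6 in the annotation, had 89.9, 80.6 and 88.2 CPM in NOZ-R and 93.8, 102.9 and 94.5 CPM in NOZ. It fell by only 0.17 ± 0.0669 on the log2 scale (SE, adjusted p = 0.0407 in edgeR), and the call was lost in 10 of 16 alternative settings, among them the omission of any 1 library (edgeR adjusted p 0.0506 to 0.212).

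HOXB5, a regulator of gut and lung development, had 30.3, 27.6 and 28.97 CPM in NOZ-R and 27.2, 24.8 and 24.8 CPM in NOZ. The lines did not overlap, yet the log2 difference of 0.18 ± 0.0815 (SE) missed the threshold (adjusted p = 0.0752 in edgeR). HOXB6, a trunk gene that shares 425 exon bases with HOXB-AS3, had 39.7, 36.6 and 40.1 CPM in NOZ-R and 34.6, 41.9 and 33.3 CPM in NOZ. The highest library was NOZ replicate 2, and the log2 difference was 0.08 ± 0.0922 (SE, adjusted p = 0.456 in edgeR), or 0.19 with an adjusted p of 0.0351 without that library. The sign of HOXB6 turned with scaling by library size alone (-0.05). HOXB13, best known from the prostate and set apart from the rest of its cluster, had 3.48, 4.21 and 4.36 CPM in NOZ-R and 4.49, 3.82 and 4.402 CPM in NOZ, with overlapping lines and an edgeR adjusted p of 0.69.

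HOXC genes (chromosome 12, 53938765 to 54056030, plus strand) fell in NOZ-R in 6 of 7 tested cases, where 29.8% of all tested genes fell. The largest decreases were those of HOXC11, HOXC8 and HOXC10. HOXC11, a regulator of hindlimb and kidney patterning in mice, had 4.31, 4.58 and 4.02 CPM in NOZ-R and 13.1, 11.7 and 13.6 CPM in NOZ. NOZ-R averaged 4.31 ± 0.280 CPM and NOZ 12.8 ± 0.970 CPM (SD, n = 3 per line), a log2 fold change of -1.57 ± 0.128 (SE, adjusted p = 1.92e-07 in edgeR). HOXC11 was the only HOX gene that also passed a test against a 2-fold change (adjusted p = 0.00104 in edgeR). HOXC10, a posterior gene of the lumbar cord and hindlimb, had 16.1, 14.2 and 11.4 CPM in NOZ-R and 29.1, 27.5 and 26.9 CPM in NOZ. Its lines were well separated, with a log2 fold change of -0.99 ± 0.112 (SE, adjusted p = 4.33e-06 in edgeR). In the annotation, 63 exon bases of HOXC10 overlap the antisense gene HOXC-AS3 and 166 overlap the same-strand gene AC012531.2. HOXC8, which acts in the thoracic skeleton, had 1.82, 1.98 and 2.15 CPM in NOZ-R and 5.19, 4.88 and 3.93 CPM in NOZ, also without overlap. It changed by -1.25 ± 0.193 on the log2 scale (SE, adjusted p = 8.05e-05 in edgeR).

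The other HOXC calls were close to the threshold. HOXC6, a gene of the thoracic region that shares exons with HOXC4, had 7.79, 7.06 and 7.04 CPM in NOZ-R and 9.29, 9.64 and 8.74 CPM in NOZ, without overlap. Its log2 fold change was -0.34 ± 0.1203 (SE, adjusted p = 0.0267 in edgeR), and the call was lost without NOZ-R replicate 2 (0.0802) or 3 (0.0775) and without NOZ replicate 1 (0.0703) or 2 (0.0644), all edgeR adjusted p. HOXC9, known as a thoracic motor neuron gene, had 4.26, 4.71 and 3.15 CPM in NOZ-R and 5.59, 4.65 and 6.64 CPM in NOZ, where the lines overlapped. It changed by -0.46 ± 0.188 (SE, adjusted p = 0.0470 in edgeR), which was lost without NOZ-R replicate 1 (edgeR adjusted p 0.0779) or 3 (0.1795) and without NOZ replicate 1 (0.0896) or 3 (0.177). HOXC13, a hair and nail gene, had 1.82, 0.619 and 0.671 CPM in NOZ-R and 1.90, 2.38 and 1.69 CPM in NOZ. NOZ-R replicate 1 lay among the NOZ libraries, and the log2 fold change of -0.90 ± 0.371 (SE, adjusted p = 0.0495 in edgeR) did not pass without NOZ-R replicate 2 (edgeR adjusted p 0.185) or 3 (0.152) or NOZ replicate 1 (0.0706) or 2 (0.116). Without NOZ-R replicate 1 it was -1.62, with an edgeR adjusted p of 0.00228. HOXC4, an anterior trunk gene, had 5.25, 3.47 and 3.82 CPM in NOZ-R and 3.89, 6.48 and 4.54 CPM in NOZ, with overlap and an edgeR adjusted p of 0.362.

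Summed over all members, HOXA held 46.5, 40.5 and 42.3 CPM in NOZ-R and 32.5, 37.1 and 31.4 CPM in NOZ, and the lines did not overlap. HOXB held 375.7, 345.1 and 376.4 CPM in NOZ-R and 379.3, 389.0 and 374.5 CPM in NOZ, with overlap. HOXC held 41.5, 36.9 and 32.4 CPM in NOZ-R and 68.6, 67.9 and 66.6 CPM in NOZ. The libraries of HOXC were far apart between the lines, and the ratio of the means was 1.28 for HOXA, 0.960 for HOXB and 0.545 for HOXC. The two-sided exact permutation p was 0.1 for HOXA and HOXC, which is the smallest that 3 against 3 libraries allow, and 0.3 for HOXB. Summed per length, HOXB reached 142.8 ± 7.03 FPKM (counts per transcript length and library total) in NOZ-R and 151.9 ± 1.91 FPKM in NOZ (SD, n = 3 per line), without overlap on that scale. The other clusters were far below it, with 13.9 ± 1.87 FPKM in NOZ-R and 27.7 ± 0.300 FPKM in NOZ for HOXC and 12.8 ± 1.30 FPKM in NOZ-R and 10.4 ± 1.04 FPKM in NOZ for HOXA. As a share of all HOX counts, HOXC made up 8.29% ± 0.965 in NOZ-R and 14.04% ± 0.274 in NOZ (SD, n = 3 per line), and HOXA 9.66% ± 0.332 in NOZ-R and 6.97% ± 0.462 in NOZ.

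**Figure D3:**
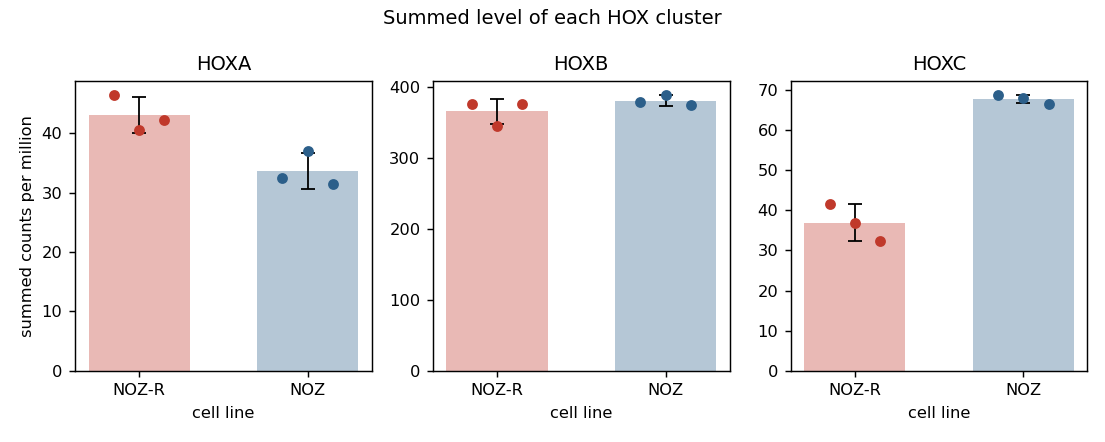
Summed level of each HOX cluster in TMM-scaled CPM, with 1 point per library, NOZ-R left of NOZ, bars for the mean and error bars for the SD of 3 libraries. HOXC lies between 32.4 and 41.5 CPM in NOZ-R and between 66.6 and 68.6 CPM in NOZ, and the HOXB libraries overlap.

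Summed over clusters by paralog number, in CPM, group 7 was higher and groups 8 to 11 were lower in NOZ-R. Group 7, here HOXB7 alone, averaged 75.0 ± 3.75 CPM in NOZ-R and 44.8 ± 1.38 CPM in NOZ. Group 9 averaged 25.1 ± 0.839 CPM in NOZ-R and 51.8 ± 0.847 CPM in NOZ, a log2 difference of -1.05 that rests mostly on HOXB9. Groups 8, 10 and 11 had log2 differences of -0.54, -0.99 and -0.75, and group 11 joins the rise of HOXA11 and the fall of HOXC11. Groups 2 and 5 were higher, by 0.41 and 0.20, and group 4 was lower, by -0.40, on the log2 scale. Group 13, with HOXA13, HOXB13 and HOXC13, was lower by a log2 difference of -0.12, without overlap, and groups 3 and 6 overlapped between the lines. Summed in FPKM, which holds no TMM scaling, group 5 differed by 0.07 with overlapping lines and group 3 by -0.20 without overlap, while group 6 overlapped on both scales. These sums are descriptions with no test of their own.

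**Figure D4:**
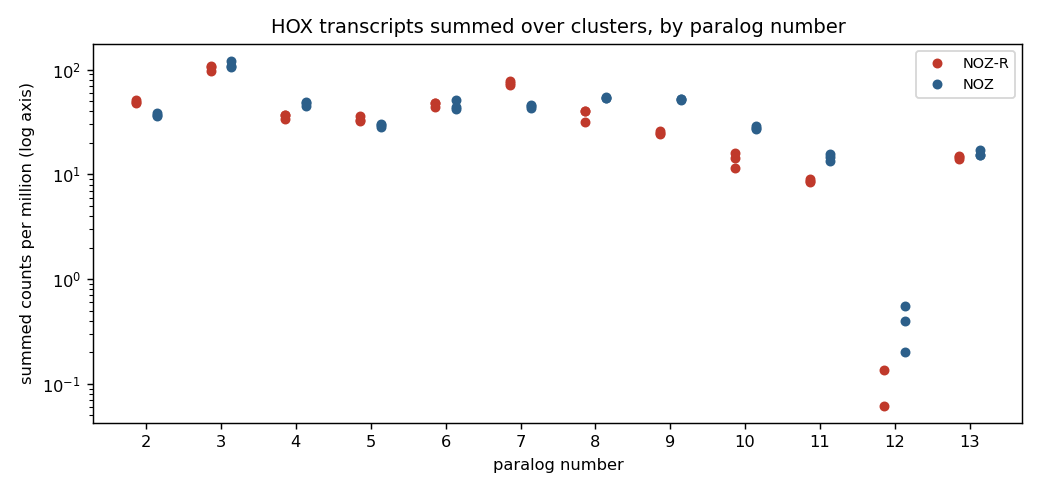
Summed level of paralog groups 2 to 13, over the 4 clusters, in TMM-scaled CPM on a log axis, with 1 point per library and NOZ-R left of NOZ. Group 7 is higher in NOZ-R, groups 8 to 11 are lower in NOZ-R, and 1 NOZ-R library at 0 in group 12 is not drawn.

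Levels of different genes were compared per length, in FPKM. HOXB7 led in both lines with 47.1 ± 2.38 FPKM in NOZ-R and 30.8 ± 1.02 FPKM in NOZ (SD, n = 3 per line), and 762 genes in NOZ-R and 1272 genes in NOZ had a higher mean. In NOZ-R it was followed by HOXB2 at 17.5, HOXB4 at 15.0, HOXB5 at 14.9, HOXB6 at 14.2 and HOXB8 at 14.03 FPKM, and the last 4 lay close to each other. In NOZ, HOXB4 at 22.1, HOXB8 at 21.5 and HOXB9 at 18.6 FPKM came next. HOXB9 stood at 7.69 FPKM in NOZ-R. HOXC10, the most abundant HOXC gene per length, had 5.60 FPKM in NOZ-R and 12.2 FPKM in NOZ, and HOXA3, the most abundant HOXA gene per length, 3.93 FPKM in NOZ-R and 3.56 FPKM in NOZ.

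Of 24 noncoding RNA genes listed within the clusters, 7 were at 0 in all libraries and 10 were tested, of which 1 rose and 2 fell in NOZ-R, against 60.2% called among all tested genes. HOTAIR, a long RNA transcribed antisense between HOXC11 and HOXC12 and known for binding Polycomb proteins, had 5.14, 5.82 and 5.77 CPM in NOZ-R and 14.2, 16.2 and 14.2 CPM in NOZ. Like its neighbour HOXC11 it fell without overlap, with a log2 fold change of -1.42 ± 0.121 (SE, adjusted p = 2.76e-07 in edgeR). HOXB-AS3 had 24.4 ± 0.989 CPM in NOZ-R and 34.5 ± 1.04 CPM in NOZ (SD, n = 3 per line), a log2 fold change of -0.50 with an edgeR adjusted p of 8.29e-05. HOXB-AS4 rose by 0.57 ± 0.193 on the log2 scale (SE, adjusted p = 0.0203 in edgeR), which 5 of 16 settings did not call, among them without NOZ-R replicate 1 and without NOZ replicate 3. HOTTIP, at the HOXA13 end and known for keeping posterior HOXA genes active, had 48, 39 and 48 counts in NOZ-R and 59, 52 and 32 in NOZ (adjusted p = 0.901 in edgeR). HOTAIRM1, a long noncoding RNA of the HOXA cluster, had at most 3 counts per library, and HAGLR, in the HOXD cluster, was at 0 in all. The precursor gene MIR196A1 had 18, 6 and 17 counts in NOZ-R and 14, 8 and 4 in NOZ (adjusted p = 0.185 in edgeR), and MIR196B was at 0.

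HOX proteins bind DNA together with the TALE homeodomain proteins PBX, MEIS and PKNOX. Of the tested genes of these families reported here, 2 rose, 3 fell and 2 did not pass in NOZ-R. Among all tested genes 60.2% were called, so such a count is common in this comparison. MEIS1 rose by 0.91 ± 0.272 on the log2 scale (SE, adjusted p = 0.0105 in edgeR). Its call was lost in 4 of 16 settings, among them both limma fits and without NOZ-R replicate 1. PKNOX1 rose by 0.29 ± 0.0911 on the same scale (SE, adjusted p = 0.0147 in edgeR). The PKNOX1 call was lost in 5 of 16 settings, among them library size only, both limma fits and without NOZ replicate 1. MEIS2, a partner of HOX proteins in limb and facial development, had 18.9 ± 1.11 CPM in NOZ-R and 32.3 ± 0.555 CPM in NOZ (SD, n = 3 per line) and fell by 0.77 ± 0.0813 on the log2 scale (SE, adjusted p = 2.27e-06 in edgeR). MEIS3 fell by 0.65 and PBX3 by 0.47 on the log2 scale, with edgeR adjusted p of 0.00148 and 0.00101. PBX2 (adjusted p = 0.584 in edgeR) and PBX4 (0.423) did not pass, and PKNOX2 had at most 4 counts per library.

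The chromatin regulators that hold HOX genes silent or active moved in both directions. Of 30 tested Polycomb group genes, 8 rose and 9 fell in NOZ-R, a share near the 60.2% of all tested genes, none by 2-fold, and their median log2 fold change was -0.04. EZH2, the methyltransferase of Polycomb repressive complex 2, had 84.6, 82.9 and 91.4 CPM in NOZ-R and 137, 137 and 134 CPM in NOZ, a log2 fold change of -0.66 ± 0.0602 (SE, adjusted p = 5.82e-07 in edgeR). RBBP7, a histone-binding subunit, fell by 0.86 and BMI1, a subunit of Polycomb repressive complex 1, fell by 0.69, whereas RING1, its ubiquitin ligase, rose by 0.81 and CBX7, its reader of methylated histone, by 0.72 on the log2 scale (with edgeR adjusted p 4.18e-08, 1.90e-05, 8.75e-06 and 0.00138). Of 25 tested COMPASS, trithorax and H3K27 demethylase genes with their partners, 10 rose and 7 fell, 2 of them by at least 2-fold, with a median of 0.10, again beside 60.2% called among all tested genes. KMT2A, the methyltransferase known for maintaining HOX expression, had 157 ± 3.55 CPM in NOZ-R and 188 ± 13.9 CPM in NOZ (SD, n = 3 per line) and fell by 0.26 on the log2 scale (adjusted p = 0.00234 in edgeR). Among its fusion partners in leukaemia, MLLT3 rose by 1.29 and AFF1 by 0.95, and MLLT10 fell by 1.11, on the log2 scale, and its cofactor PSIP1 fell by 0.95 (edgeR adjusted p 8.87e-05, 2.20e-08, 1.61e-08 and 3.13e-07).

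Retinoic acid is the classical inducer of anterior HOX genes, and 6 of 13 tested genes of its pathway rose and 3 fell in NOZ-R, with a median log2 fold change of 0.18, where 30.4% of all tested genes rose and 29.8% fell. STRA6, the cell's receptor for vitamin A uptake and itself inducible by retinoic acid, had 56.9, 52.5 and 48.1 CPM in NOZ-R and 3.69, 3.16 and 2.44 CPM in NOZ, a log2 fold change of 4.06 ± 0.127 (SE, adjusted p = 1.20e-11 in edgeR). CYP26B1, which degrades retinoic acid, had 4.23 ± 1.09 CPM in NOZ-R and 1.29 ± 0.373 CPM in NOZ (SD, n = 3 per line; edgeR adjusted p = 9.18e-05). RDH10, which makes the retinal precursor, went the other way, with 19.4 ± 0.682 CPM in NOZ-R and 38.9 ± 2.37 CPM in NOZ (adjusted p = 1.79e-07 in edgeR). NRIP1, a receptor corepressor, fell by 0.63 on the log2 scale (adjusted p = 0.000448 in edgeR).

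**Figure D5:**
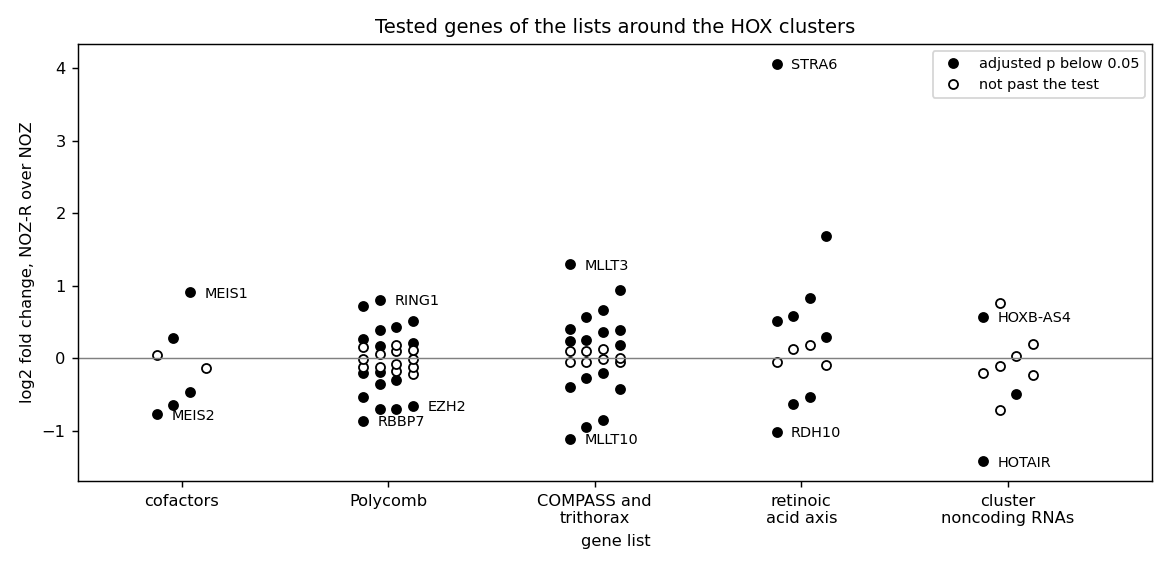
Log2 fold change of NOZ-R over NOZ for the reported cofactors and the tested Polycomb, COMPASS and trithorax, retinoic acid and cluster noncoding RNA genes, 1 point per gene, filled where the edgeR adjusted p was below 0.05. STRA6 at 4.06 lies highest, HOTAIR at -1.42 lies lowest, and the Polycomb genes stay between -0.86 and 0.81.

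Of 21 related ParaHox and HOX-linked homeobox genes outside the clusters, 13 were at 0 in all libraries, beside 31525 of all 63140 rows. Among the 13 were CDX1 and CDX2, the intestinal regulators of posterior HOX genes. Of 5 tested, 0 rose in NOZ-R in edgeR (0 at an unadjusted p below 0.05) and 2 fell: EN2 by 0.71 on the log2 scale (adjusted p = 0.00158 in edgeR) and MNX1, a motor neuron and pancreas gene, with 0.617 ± 0.182 CPM in NOZ-R and 1.36 ± 0.405 CPM in NOZ (SD, n = 3 per line; edgeR adjusted p = 0.0147). The MNX1 call was lost without NOZ-R replicate 1 and without NOZ replicate 1. Of the 5 tested genes, 4 reached the filter of the main test in both lines. MNX1 reached it in all libraries of NOZ only, the line where it was higher, so its entry to the test rests on NOZ. Genes beyond the cluster ends were set beside the clusters: of the tested non-HOX genes within 1 Mb, 4 rose and 1 fell of 9 around HOXA, 15 rose and 5 fell of 31 around HOXB, and 11 rose and 7 fell of 30 around HOXC. Their median log2 fold changes were 0.07, 0.22 and 0.10, whereas the median of the HOXC genes themselves was -0.90. Among all tested genes 60.2% were called, which the counts of ParaHox and HOX-linked genes, of neighbours and of flanking genes are to be read against. Among 16 tested genes of a list directly flanking the clusters, 6 rose and 3 fell, led by MTX2 next to HOXD (0.35) and SNX11 beside HOXB (0.32), and by HIBADH beside HOXA (-0.59) and HNRNPA1 beside HOXC (-0.33), all on the log2 scale. The SNX11 call was lost in 7 of 16 settings, among them without NOZ-R replicate 1, NOZ-R replicate 2 or NOZ replicate 2.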

How the data were processed

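Poly-A RNA of 3 NOZ-R and 3 NOZ libraries was sequenced, and per the labels' protocols no strand-marking step or molecular identifier was used. The authors deposited whole-number counts per gene and FPKM values for 63140 rows. The submitters' processing notes name fastp 0.22.0 and GRCh38. Which aligner, counter, strand setting and annotation they used is not given in the sources used here.

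Samples were grouped by title. Counts were analysed in R 4.3.3 with edgeR 4.0.16 (filterByExpr, TMM factors, glmQLFit and glmQLFTest, Benjamini-Hochberg adjustment over 14386 genes at 0.05), and CPM use TMM-scaled totals. TMM factors lay between 0.954 and 0.961 in NOZ-R and between 1.04 and 1.05 in NOZ. The filter needs about 0.585 CPM in 3 libraries, and all 22 tested HOX genes reached it in both lines. Standard errors are the log2 fold change divided by the square root of F. Cluster sums were compared by an exact permutation test over libraries. Tables and plots used Python 3.11.15, pandas 2.3.3 and matplotlib 3.10.9.

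Every HOX gene entered the analysis, and a few named by the rule are left out of the text. From each other list up to 2 increases and 2 decreases past the test with a mean of at least 1 CPM were named, and always PBX2, PBX3, PBX4, MEIS1 to MEIS3, PKNOX1, PKNOX2, HOTAIR, HOTAIRM1, HOTTIP, HAGLR, CDX1, CDX2, EZH2 and KMT2A. HOXA11-AS, MIR196A1, MIR196B and CDH1 were named outside this rule, after their values were seen. The members and lists were chosen with earlier results of these data known. Positions are from GENCODE release 29 (GRCh38), and sequences from RefSeq tables (GRCh38.p14), which held promoters of 20 of the 39 HOX genes.

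In simulated libraries of NOZ-R and NOZ with 14386 genes, 86.3% of log2 changes of 1 and 63% of 0.5 were recovered, and 7.75% of calls were false. Whether these rates hold for the deposited libraries, where 60.2% of tested genes were called, was not tested. Alternatives were scaling by library size only, by upper quartiles or by DESeq2 size factors, no filter, 1 CPM in 3 libraries, the DESeq2 1.42.0 Wald test, limma 3.58.1 on log2(FPKM + 1) and log2(FPKM + 0.1), a replicate block, a test against a 2-fold change and the omission of each library. PCR copies cannot be recognised, so intervals and limits cover counting error only.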

Additional observations from a re-analysis of the deposited data

How the results depend on the processing

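Of 14 HOX calls, 10 were kept in every setting but the test against a 2-fold change: HOXA2, HOXA11, HOXB2, HOXB7, HOXB4, HOXB8, HOXB9, HOXC8, HOXC10 and HOXC11. That test asks for more than a nonzero change and left 0 of 4 HOX genes higher and 1 of 10 lower. Over all 14386 tested genes it left 847 higher (4379 in the main test) and 442 lower (4284). It also left 1 cofactor (of 6 called), 0 Polycomb genes (of 17), 0 COMPASS and trithorax genes (of 17), 2 retinoic acid genes (of 9), 1 cluster noncoding RNA (of 3), 0 ParaHox and HOX-linked genes (of 2) and 0 flanking genes (of 9). With 1 library left out, 4 to 7 HOX genes were higher, 7 without NOZ replicate 2 (HOXA3, HOXA5 and HOXB6 added), and 6 to 8 were lower, 6 without NOZ-R replicate 3 and without NOZ replicate 1. The ParaHox and HOX-linked calls ranged from 1 to 2 over these omissions and numbered 1 by the DESeq2 Wald test. The Wald test called 7 HOX genes lower, among them HOXC12, which the main test did not hold. It did not call HOXB3, HOXC6, HOXC9 and HOXC13.

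With scaling by library size only, the median log2 fold change of all genes moved by -0.129, and this gave 3316 higher and 5468 lower genes over the whole table (4379 and 4284 with TMM), and moved the cluster log2 ratios to 0.23 for HOXA (0.36 with TMM), -0.19 for HOXB (-0.06) and -1.003 for HOXC (-0.87). limma gave 3219 higher and 5298 lower genes on log2(FPKM + 1) and 3237 and 5317 on log2(FPKM + 0.1). Signs turned for genes that did not pass: HOXA13 gave 0.00089 by the Wald test and -0.0612 to 0.0751 with 1 library left out, HOXB6 -0.0463 with library size only and -0.0362 and -0.0381 with limma at pseudocounts of 1 and 0.1. With 1 library left out, HOXB13 ranged from -0.154 to 0.0194 and HOXC4 from -0.443 to 0.0078. The cause was not tested. The replicate numbers did not pair the libraries (correlations of same-numbered libraries 0.0682, -0.0224 and -0.0365). With the replicate block, 8 HOX genes were lower, HOXB3 (log2 fold change -0.17, adjusted p 0.0637) and HOXC9 (-0.46, 0.0642) no longer passing in edgeR. Depth limits the 17 untested HOX genes, 9 of them at 0.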

Other observations

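Ratios of counts within a library, which do not depend on scaling between libraries, separated the lines for several pairs of genes of the same cluster. HOXB9 over HOXB7 was 0.284, 0.277 and 0.272 in NOZ-R and 1.09, 1.02 and 0.988 in NOZ. HOXA11 over HOXA13 was 0.459 ± 0.0205 in NOZ-R and 0.190 ± 0.0390 in NOZ (SD, n = 3 each). HOXC11 over HOXC4 was 1.07 ± 0.250 in NOZ-R and 2.73 ± 0.815 in NOZ. These pairs did not overlap between the lines.

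Noncoding RNAs differed in how they followed a neighbouring HOX gene. HOTAIR over HOXC11 was 1.30 ± 0.123 in NOZ-R and 1.17 ± 0.185 in NOZ and HOTTIP over HOXA13 was 0.289 ± 0.0383 in NOZ-R and 0.278 ± 0.0428 in NOZ, with overlap in both. HOXB-AS3 over HOXB5 was 0.844 ± 0.0544 in NOZ-R and 1.35 ± 0.105 in NOZ, without overlap. HOXA-AS2 over HOXA3 was 0.547 ± 0.0906 in NOZ-R and 0.714 ± 0.0365 in NOZ, also without overlap. Exons overlap between HOXA-AS2 and HOXA3 (374 bases), HOTTIP and HOXA13 (86 bases) and HOXB-AS3 and HOXB5 (73 bases), so reads of these pairs cannot be fully separated. These pairs were chosen after single-gene values were seen, and the ratios have no test.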
